A study of Mus musculus with 50 samples.

Results

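The 9 genes described here encode uptake transporters for organic ions, chosen by name as members of the families Slc22 (Slc22a7, Slc22a26, Slc22a28, Slc22a29 and Slc22a30) and Slco (Slco1a1, Slco1a4, Slco1b2 and Slco2b1) out of 45792 rows of a gene count table. Slc22a26 and Slc22a29 were selected on their measured change with diet in non-tumour liver, so every value of that contrast is a description and carries no test. The livers of that contrast also serve as the controls of the tumours, and for these 2 genes the tumour against liver values are likewise given without a test. RNA-seq had been run on 23 non-tumour livers and 27 liver tumours of C3H/He mice, an inbred strain prone to liver tumours, all harvested at 48 weeks. The methods give the sex as male for a pilot group, and in all 49 libraries used the Y-linked Ddx3y stood at 32.7 CPM or more and the X-inactivation RNA Xist at 0.680 or less, in counts per 1000000 counts of the library (CPM). The mice were fed a control diet or ALIOS, an American lifestyle diet rich in trans fat and given with fructose in the drinking water. Non-tumour liver came from 12 control fed and 11 ALIOS fed mice. Tumours that arose without carcinogen, called spontaneous below, came from the ALIOS diet, with 12 libraries used, and from the control diet, with 1 library. Tumours of mice that were also given the liver carcinogen diethylnitrosamine (DEN) came from the ALIOS diet (8 libraries) and the control diet (5 libraries). No non-tumour liver was labelled with DEN, so tumour tissue and DEN treatment cannot be told apart where DEN tumours are compared with liver. The labels do not tie tumours to livers of the same mouse, nor do they say whether any DEN tumours shared a mouse. The tests treat each library as independent, and p-values measure the spread between these libraries. A further library labelled as an ALIOS tumour, T1, was left out because it held kidney transcripts, with Slc22a6, the organic anion transporter of the kidney tubule, at 1289 CPM.

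Hepatocytes clear drugs, bile acids, hormones and their conjugates from portal blood, and the first step is carried out by carriers in the basolateral membrane. The organic anion transporting polypeptides of the Slco family take up bile acids, bilirubin conjugates, steroid sulphates and many drugs without using sodium. The Slc22 family holds the organic anion, cation and carnitine transporters, which share a fold of the major facilitator type. In rodents a run of closely related Slc22 genes lies next to the kidney organic anion transporters, and several genes of both families are expressed at different levels in male and female liver under the control of growth hormone.

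The other 4 members of the Slc22 family, beside Slc22a7, lie in 1 cluster on the minus strand of chromosome 19 in mm10: Slc22a26 at chr19:7781041-7802667, Slc22a28 at chr19:8062209-8131982, Slc22a29 at chr19:8160165-8218900 and Slc22a30 at chr19:8335371-8405111. The 250 bases before the RefSeq start of each (GRCm38.p6, the assembly of mm10) are shown 5′ to 3′ because these neighbours differed from each other in their values with diet.
Slc22a26 (chr19:7802668-7802917): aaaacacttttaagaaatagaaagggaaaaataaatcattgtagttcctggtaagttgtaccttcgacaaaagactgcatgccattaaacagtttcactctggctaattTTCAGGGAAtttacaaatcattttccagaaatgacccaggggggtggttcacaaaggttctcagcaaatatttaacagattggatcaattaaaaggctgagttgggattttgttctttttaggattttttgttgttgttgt
Slc22a28 (chr19:8131983-8132232): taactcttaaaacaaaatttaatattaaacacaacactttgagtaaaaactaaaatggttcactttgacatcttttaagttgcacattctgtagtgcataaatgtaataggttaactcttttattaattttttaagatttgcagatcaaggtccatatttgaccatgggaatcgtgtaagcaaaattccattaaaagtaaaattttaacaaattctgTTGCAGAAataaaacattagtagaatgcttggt
Slc22a29 (chr19:8218901-8219150): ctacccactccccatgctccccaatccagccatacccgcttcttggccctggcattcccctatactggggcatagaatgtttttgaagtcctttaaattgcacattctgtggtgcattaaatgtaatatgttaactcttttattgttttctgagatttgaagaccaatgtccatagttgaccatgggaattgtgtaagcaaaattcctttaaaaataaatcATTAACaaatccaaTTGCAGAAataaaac
Slc22a30 (chr19:8405106-8405355): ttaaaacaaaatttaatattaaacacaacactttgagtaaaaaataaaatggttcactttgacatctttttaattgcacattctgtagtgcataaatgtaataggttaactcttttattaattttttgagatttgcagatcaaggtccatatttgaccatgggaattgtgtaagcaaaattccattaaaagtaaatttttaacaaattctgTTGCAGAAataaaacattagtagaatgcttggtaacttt
Capitals mark matches, on either strand, to short letter patterns of liver factors: GTTAAT for HNF1, TTCNNNGAA for STAT5, TTGCNNAA for C/EBP, AGTTCA for nuclear receptors and CAAAGTCCA for the HNF4 core. The window of Slc22a28 was 93.0% identical to that of Slc22a30, and the coding sequences of this pair were 98.8% identical. Slc22a29 was 92.1% and 92.2% identical to them in coding sequence but 65.1% and 62.7% in the window before the start. Slc22a26 was the most distant of the 4, with 74.1% to 74.2% in coding sequence and 40.0% to 51.8% in the window. Slc22a28, Slc22a29 and Slc22a30 each held 1 match to TTGCNNAA, found in 9.6% of the 32851 promoter windows of the same length. Slc22a29 also held 1 match to GTTAAT, on the minus strand, found in 6.4% of the windows. Slc22a26 held TTCNNNGAA, which reads the same on both strands and was found in 7.0%. AGTTCA, in 11.8% of all windows, and CAAAGTCCA, in 0.4%, had no match in the 4 windows. A match is a string of letters only, and no binding was measured.

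The likeness of these genes bears on their counts. Of the 100-base windows of the Slc22a28 exons, 36.9% also occurred in Slc22a30, and 20.87% of those of Slc22a30 occurred in Slc22a28, so reads of this pair may have been lost or assigned to either gene and their values are uncertain. For Slc22a29 6.24% of the windows occurred in Slc22a27, the gene between Slc22a26 and Slc22a28. For Slc22a26, Slco1a1 and Slco1a4 the largest share with any 1 gene was between 0.56% and 0.62%. Slco1b2 (chr6:141629518-141686646), Slco1a4 (chr6:141805440-141856199) and Slco1a1 (chr6:141907282-141946962) lie together on chromosome 6, where the coding sequences of Slco1a1 and Slco1a4 were 86.7% identical. Slc22a7 lies alone at chr17:46432183-46438457. Slco2b1, at chr7:99657804-99711340, shares 471 exon bases with the antisense gene Gm15635 and 78 with Gm34280.

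Total counts per library ran from 23798251 to 45751398. All 9 genes passed the filter on low counts in each comparison. Hepatocyte markers, 20 genes, summed to 115259 CPM or more in every library used, and kidney markers, 12 genes, to 24.1 CPM or less. Values are CPM scaled by the trimmed mean of M-values, given as mean ± SD over the libraries. Divided by the length of the exons, to compare genes with each other, the control fed liver held most Slco1b2, at a mean of 285 CPM per kb, followed by Slco1a1 at 129.7, Slc22a30 at 60.0, Slc22a7 at 51.7 and Slco2b1 at 25.9. Slc22a28 and Slco1a4 followed at 8.53 and 6.33 CPM per kb. Slc22a26 and Slc22a29 were the lowest, at 0.445 and 0.440 CPM per kb. On the ALIOS diet the mean of Slc22a26 was 6.87 CPM per kb, between Slco1a4 at 7.85 and Slc22a28 at 6.37, and that of Slc22a29 was 2.45. The place of Slc22a26 between Slco1a4 and Slc22a28 rested on 1 liver, N23, at 114 CPM. Without N23 its mean, before division by length, was 10.9 CPM in place of 20.3.

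**Figure D1:**
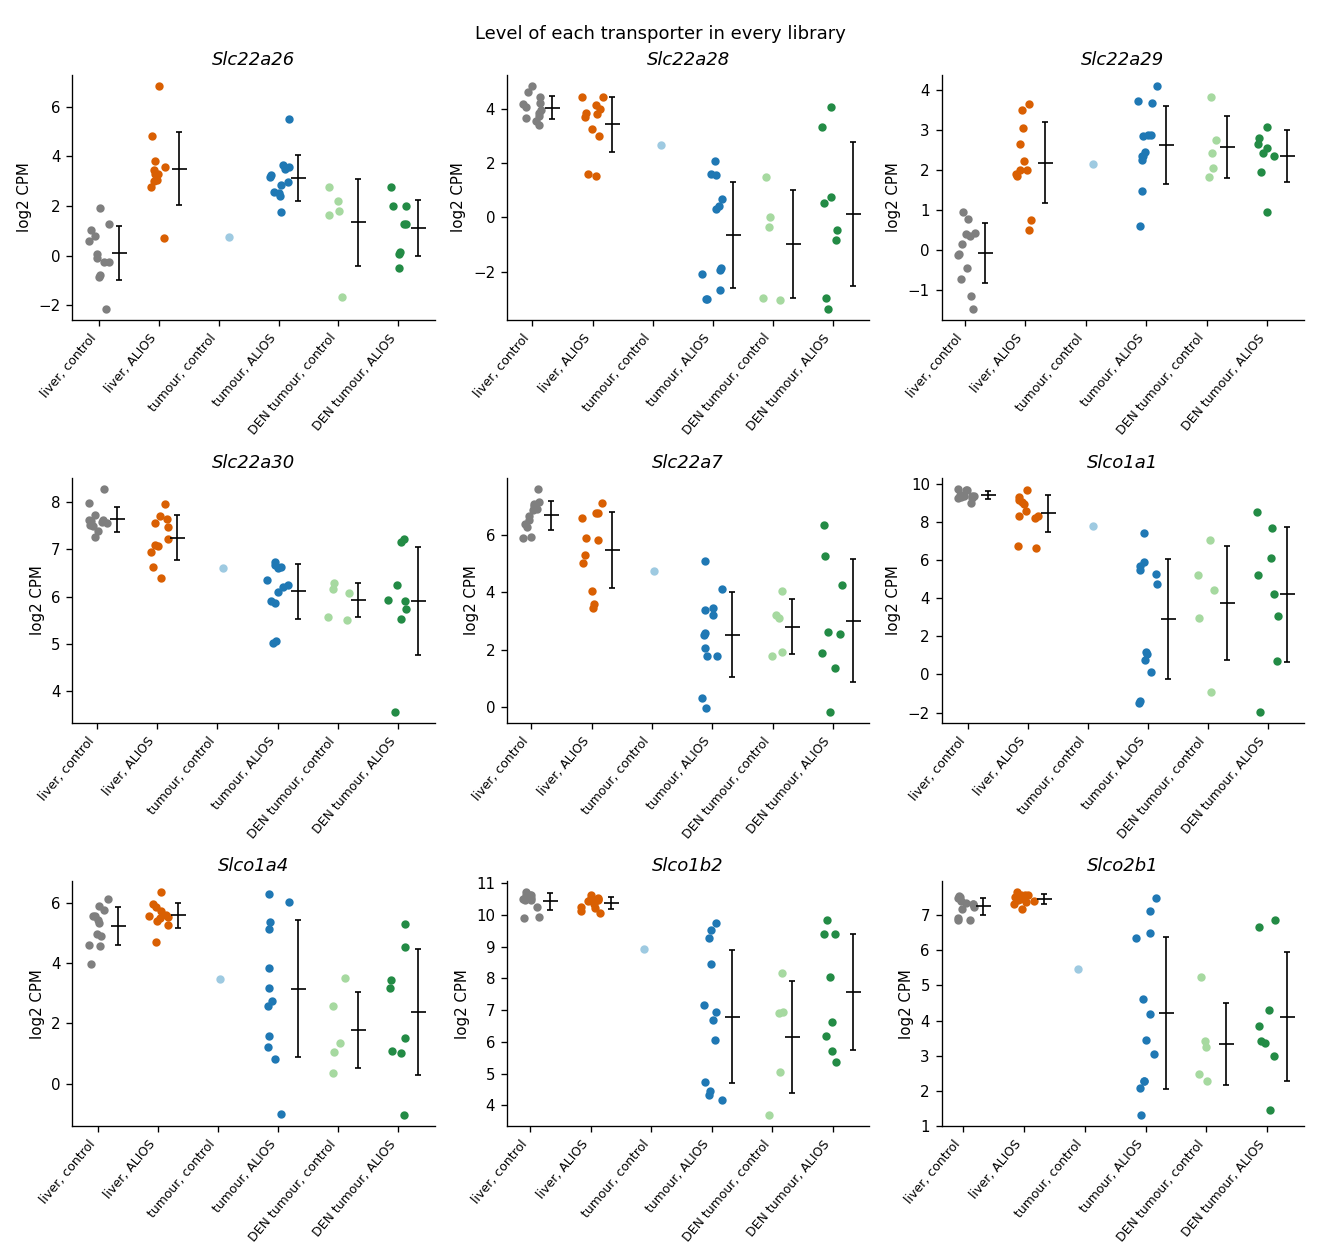
Log2 CPM of each of the 9 transporters (one panel each, with its own axis) in every library of the 6 groups, with the mean and SD beside each group of more than 1 library. Slc22a26 and Slc22a29 are low in control fed liver and higher in ALIOS fed liver, while the other 7 are highest in liver. Most of these 7 spread widely among tumours, with the least spread for Slc22a30.

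In non-tumour liver the ALIOS diet went with higher Slc22a26 and Slc22a29 and lower mean values of their neighbours Slc22a28 and Slc22a30. Slc22a26, a transporter of the rodent cluster with little known of its substrates, ran from 0.164 to 3.75 CPM with a median of 0.929 in control fed livers and from 1.57 to 114 with a median of 9.78 in ALIOS fed livers. In 10 of the 11 ALIOS livers it stood above every control liver, and the exception, N21, was the lowest. The log2 fold change was 3.97 with a standard error (SE) of 0.59, which ranked 6 by size among 13723 genes, and it was 3.08 without N23, the library at 114 CPM, an alternative chosen after seeing the data. Slc22a29 ran from 0.301 to 1.87 CPM (median 0.966) on the control diet and from 1.35 to 12.6 (median 3.94) on ALIOS. It lay above every control liver in 9 of 11 ALIOS livers, with a log2 fold change of 2.47 (SE 0.35) that ranked 35 by size. The ALIOS livers differed in which of these genes was high. N23 was the highest for Slc22a26 but stood at the median for Slc22a29, and N17, the highest for Slc22a29, had 6.64 CPM of Slc22a26.

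The other 7 members differed less between the diets. Slc22a7, which carries organic anions and cyclic nucleotides, had 108.6 ± 38.2 CPM in 12 control livers and 61.7 ± 44.6 in 11 ALIOS livers, a log2 fold change of -0.82 (SE 0.36). Slco1a1, a carrier of bile acids and steroid sulphates that is higher in male than in female mouse liver, had 684 ± 100.2 and 415 ± 219 CPM, a log2 fold change of -0.73 (SE 0.25). In 7 of the 11 ALIOS livers Slc22a7 stood below every control liver, and the same count held for Slco1a1. Slc22a28 and Slc22a30 had log2 fold changes of -0.43 (SE 0.27) and -0.35 (SE 0.15). Those of Slco1a4, an uptake carrier for cardiac glycosides and other drugs, and Slco2b1, an organic anion carrier of many tissues, were 0.30 (SE 0.21) and 0.19 (SE 0.08). Slco1b2, a carrier of bilirubin conjugates and statins found mostly in liver, had 1407 ± 237 CPM on the control diet and 1341 ± 167 on ALIOS, with a log2 fold change of -0.08 (SE 0.10). For all 9 genes the 2 diets overlapped.

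The lowest Slco1a1 and Slc22a28 and the highest Slc22a29 of the ALIOS livers stood in the same 2 livers. N17 and N19 held 101 and 109 CPM of Slco1a1, against 294 to 812 in the other ALIOS livers. They also held the least Slc22a28, at 2.97 and 2.82 CPM, the least Slc22a30, at 84.5 and 99.0, and the most Slc22a29, at 12.6 and 11.3 CPM. For Slc22a7, Slc22a28, Slc22a30, Slco1a1 and Slco2b1 the lowest ALIOS liver was N17 or N19, which sets the bound for tumours said to lie below every liver. In the authors' clustering, tumour T6 lay among non-tumour livers, near N17 and N19. Without N17 and N19, an alternative also chosen after seeing the data, the log2 fold change of Slc22a29 was 2.03 and that of Slc22a26 was 4.01. The decreases were smaller without them, at -0.20 for Slc22a28, -0.22 for Slc22a30, -0.51 for Slco1a1 and -0.59 for Slc22a7. These stood in place of -0.43, -0.35, -0.73 and -0.82. N17 also had the highest sum of stellate and matrix markers of the ALIOS livers, 742 CPM against 286 to 478 in the others and 335 in N19, and its part in the transporters' values was not tested.

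In this contrast edgeR called 6.73% of 13723 genes higher, the 2 genes chosen for their change among them, and 4.51% lower, with none of the 9, and nothing is read from these counts. These were 923 and 619 genes, and the number called in both directions together was 413 without N17 and N19, 623 with all groups in 1 fit and 2200 with DESeq2. Among the other genes of the 2 families, 31 in all, 12 passed the filter, of which 4 rose and 1 fell with ALIOS. Slc22a27, a cluster neighbour that shares sequence with Slc22a29, rose by 3.06 (SE 0.50, adjusted p = 0.00108, edgeR). Slc22a5, the carnitine transporter, rose by 0.42 (SE 0.12, adjusted p = 0.0251, edgeR), and Slc22a3, an organic cation transporter, rose by 1.09 (SE 0.32, adjusted p = 0.0303, edgeR). Slco2a1, the prostaglandin transporter, fell by 0.46 on the log2 scale (SE 0.14, adjusted p = 0.0403, edgeR), and the remaining one that rose was Slc22a18. Without N17 and N19, and also with all groups in 1 fit, Slc22a27 alone of these 5 passed. Along chromosome 19 the values did not run with position, with Slc22a26, Slc22a27 and Slc22a29 at high positive values and Slc22a28 and Slc22a30 just below 0.

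**Figure D2:**
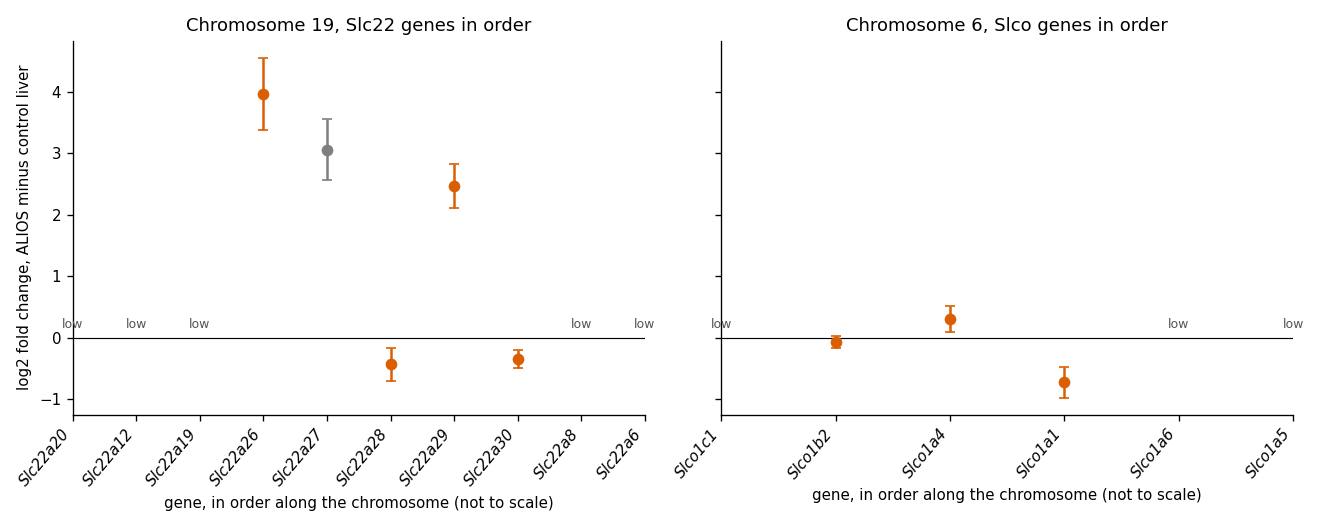
Log2 fold change with its SE between ALIOS and control fed non-tumour liver for Slc22 genes of chromosome 19 (left) and Slco genes of chromosome 6 (right), in their order along the chromosome, with members in orange, other genes in grey and "low" for genes removed by the filter on low counts. Slc22a26, Slc22a27 and Slc22a29 lie between 2.47 and 3.97, and Slc22a28 and Slc22a30 at -0.43 and -0.35.

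Genes that are known to be higher in female than in male mouse liver moved with the diet in these male mice. Of 18 such genes, listed with earlier results of these data known, 13 passed the filter and 9 rose. The median log2 fold change over those tested was 2.46. The filter keeps genes that are high in 1 group only, so some of the 13 may have entered through the ALIOS livers. Without the filter 12 of 18 rose. The 9 that rose with the filter included Cyp2b10, Cyp2b13 and Cyp2a4, which encode cytochromes P450, and Hao2, a peroxisomal hydroxyacid oxidase, at log2 fold changes of 2.88 (SE 0.45), 4.35 (SE 0.71), 3.77 (SE 0.76) and 2.88 (SE 0.53), with adjusted p in edgeR between 7.9e-04 and 0.0047. Of 14 tested genes known to be higher in males, 5 fell and none rose (median -0.63), among them the glutathione transferase Gstp1 by 1.03 on the log2 scale (SE 0.16), Cyp2u1, the fatty acid elongase Elovl3 (log2 fold change -2.21, SE 0.61) and the hydrolase Nudt7. None of 28 genes listed as regulators, which included growth hormone signalling and nuclear receptor genes, passed the test (median log2 fold change -0.065). This does not show that they were unchanged. Of 16 tested bile acid and drug transporters, 4 rose, among them the efflux pumps Abcc4 by 0.85 (SE 0.18) and Abcb1a by 1.11 (SE 0.27). None of 20 hepatocyte markers passed the test, while 11 of 14 macrophage markers rose, with a summed level of 404 to 920 CPM in control and 608 to 1752 CPM in ALIOS livers, and their part in the transporters' values was not tested. Without N17 and N19, 7 female-biased genes and 6 macrophage markers rose, 2 male-biased genes fell and 1 of the 16 transporters, Abcc4, rose. With all groups in 1 fit 10 of 18 female-biased genes rose, 1 male-biased gene fell, 2 transporters rose and 0 macrophage markers passed in edgeR, where DESeq2 on the 2 liver groups called 12.

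**Figure D3:**
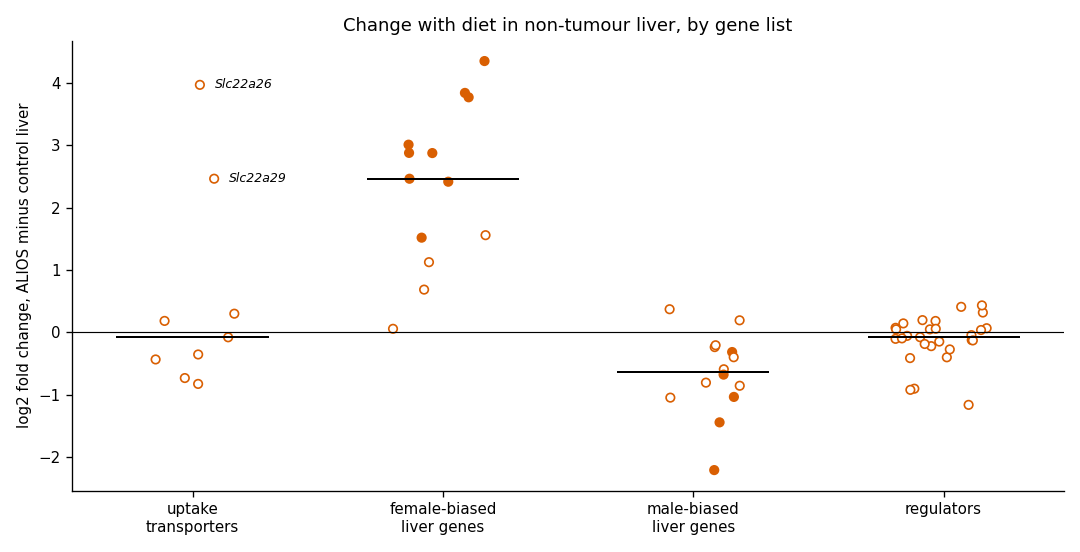
Log2 fold change between ALIOS and control fed non-tumour liver of the 9 transporters, 13 female-biased, 14 male-biased liver genes and 28 regulators, one point per gene tested, with the median as a line. Filled points passed an adjusted p of 0.05 (not marked for the transporters). Slc22a26 and Slc22a29 were chosen for their change in this contrast, so their place beside the female-biased genes that rose is a description only.

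In spontaneous tumours on the ALIOS diet 6 of the 7 members tested against ALIOS fed liver fell and none rose, beside 25.9% of 14183 genes called lower and 26.9% called higher. Slco1b2 ran from 18.1 to 868 CPM (median 113.5) in 12 tumours and from 1069 to 1584 (median 1390) in 11 livers, so that every tumour lay below every liver. Its log2 fold change was -2.43 (SE 0.58, adjusted p = 0.00116, edgeR), and it was the one member of the 7 whose groups did not overlap, as 2.71% of all genes did in the lower direction. Slco1a1 ran from 0.299 to 174 CPM (median 14.4) in tumours and from 101 to 812 (median 383) in liver, with a log2 fold change of -3.68 (SE 0.83, adjusted p = 7.6e-04, edgeR). In 11 tumours Slco1a1 lay below every liver, and in 11 Slco2b1 did, which fell by 1.95 on the log2 scale (SE 0.59, adjusted p = 0.00781, edgeR). In bulk tissue fewer hepatocytes that express a gene and less RNA per cell cannot be told apart.

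The Slc22 members tested fell as well. Slc22a28 ran from 0.0617 to 4.14 CPM (median 0.694) in tumours and from 2.82 to 21.6 (median 14.03) in liver. Its log2 fold change was -3.42 (SE 0.59, adjusted p = 4.4e-05, edgeR), and in 9 of 12 tumours it lay below every liver. Slc22a7 fell by 2.85 (SE 0.54, adjusted p = 1.2e-04, edgeR) and Slc22a30 by 1.15 (SE 0.20, adjusted p = 5.5e-05, edgeR) on the same scale. Slc22a30, from 32.2 to 107 CPM in tumours and 84.5 to 250.1 in liver, kept the largest share of its liver level among the 6 that fell. Slco1a4, the member that did not pass, had 22.2 ± 27.3 CPM in tumours and 50.4 ± 14.3 in liver (log2 fold change -1.24, SE 0.58, adjusted p = 0.0749, edgeR). With T1 included the log2 fold change of Slc22a28 was 0.20 (adjusted p = 0.888, edgeR) in place of -3.42.

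The tumours fell into no single level. In 8 of the 12, T4, T8 to T14, all 7 members lay below every ALIOS liver. In T2, T3, T5 and T6 between 2 and 5 of the 7 did. T2 held 180 CPM of Slco2b1 and 79.5 of Slco1a4, both inside the range of liver, together with 735 CPM of Slco1b2 and 45.6 of Slc22a26, the highest Slc22a26 of any tumour. T6 held 868 CPM of Slco1b2 and 66.0 of Slco1a4 but 38.5 of Slco1a1, so that 1 Slco gene could be near its liver level in a tumour where another was low.

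In DEN tumours on the ALIOS diet, compared with the same ALIOS livers of mice without DEN, 5 of the 7 members fell and none rose. Beside them 19.8% of 14434 genes were called lower and 27.7% higher. Slco2b1 fell by 2.31 on the log2 scale (SE 0.56, adjusted p = 0.00218, edgeR) and ran from 2.65 to 116 CPM in 8 tumours, below the lowest liver at 144. Slco1b2 fell by 1.93 (SE 0.51, adjusted p = 0.00433, edgeR) and ran from 41.0 to 913 CPM in tumours. For these 2 genes the groups did not overlap, as for 5.02% of all genes in the lower direction. Slco1a4 fell as well (log2 fold change -2.14, SE 0.58, adjusted p = 0.00498, edgeR). So did Slc22a30 (log2 fold change -1.07, SE 0.34, adjusted p = 0.0133, edgeR) and Slco1a1 (log2 fold change -2.21, SE 0.88, adjusted p = 0.0443, edgeR). Slc22a7 and Slc22a28 had log2 fold changes of -1.63 (SE 0.73, adjusted p = 0.0735, edgeR) and -1.71 (SE 0.78, adjusted p = 0.0780, edgeR). Both passed with DESeq2 and with all groups in 1 fit, at adjusted p of 0.0340 and 0.0479 and of 0.0206 and 0.0363, and with edgeR Slc22a28 passed without T23 (0.0389) and Slc22a7 without N17 and N19 (0.0440).

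DEN tumours on the ALIOS diet also differed among themselves. T23 and T25 held 207 and 368 CPM of Slco1a1, 9.98 and 16.8 of Slc22a28 and 38.1 and 81.7 of Slc22a7, all inside the range of the livers. T24 held the most Slco1b2 of any tumour, at 913 CPM, and 39.7 of Slco1a4, with the least Slco1a1 (0.194), Slc22a28 (0.0353), Slc22a7 (0.830) and Slc22a30 (11.7) of all 8. T24 also had the highest sum of stellate and matrix markers of the 8, 1337 CPM against 179 to 406 CPM. Without T24 the same number of members, 5 of 7, passed, with Slco1a4 at a log2 fold change of -2.79 in place of -2.14. Without T23 the log2 fold change of Slco2b1 was -2.90 in place of -2.31.

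In DEN tumours on the control diet all 7 members tested fell against liver of control fed mice without DEN, with no overlap of the groups. Beside them 24.4% of 14731 genes were called lower and 27.3% higher, and 11.1% did not overlap in the lower direction. The log2 fold changes were -4.24 for Slc22a28 (SE 0.54), -4.08 for Slco1a1 (SE 0.75), -3.71 for Slc22a7 (SE 0.38), -3.61 for Slco1b2 (SE 0.51), -3.50 for Slco2b1 (SE 0.40), -3.14 for Slco1a4 (SE 0.47) and -1.69 for Slc22a30 (SE 0.16), with adjusted p in edgeR between 5.9e-08 and 1.4e-04. In tumours T17, T18, T19, T20 and T21 Slco1b2 stood at 33.1, 12.8, 286, 119 and 124 CPM, and the lowest of 12 control livers held 957. Slco1a1 stood at 7.72, 0.475, 135, 36.8 and 21.8 CPM in the same order, against 504 in the lowest liver. T19 was the highest of the 5 for all 7 members. Without it the log2 fold changes were -5.35 for Slco1a1, -5.21 for Slc22a28, -4.33 for Slco2b1, -4.28 for Slco1b2 and -3.79 for Slco1a4, and all 7 members passed. The 1 spontaneous tumour on the control diet, T7, held 485 CPM of Slco1b2, 223 of Slco1a1, 98.0 of Slc22a30, 44.5 of Slco2b1, 26.6 of Slc22a7, 11.2 of Slco1a4 and 6.25 of Slc22a28, and a single library allows no test.

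**Figure D4:**
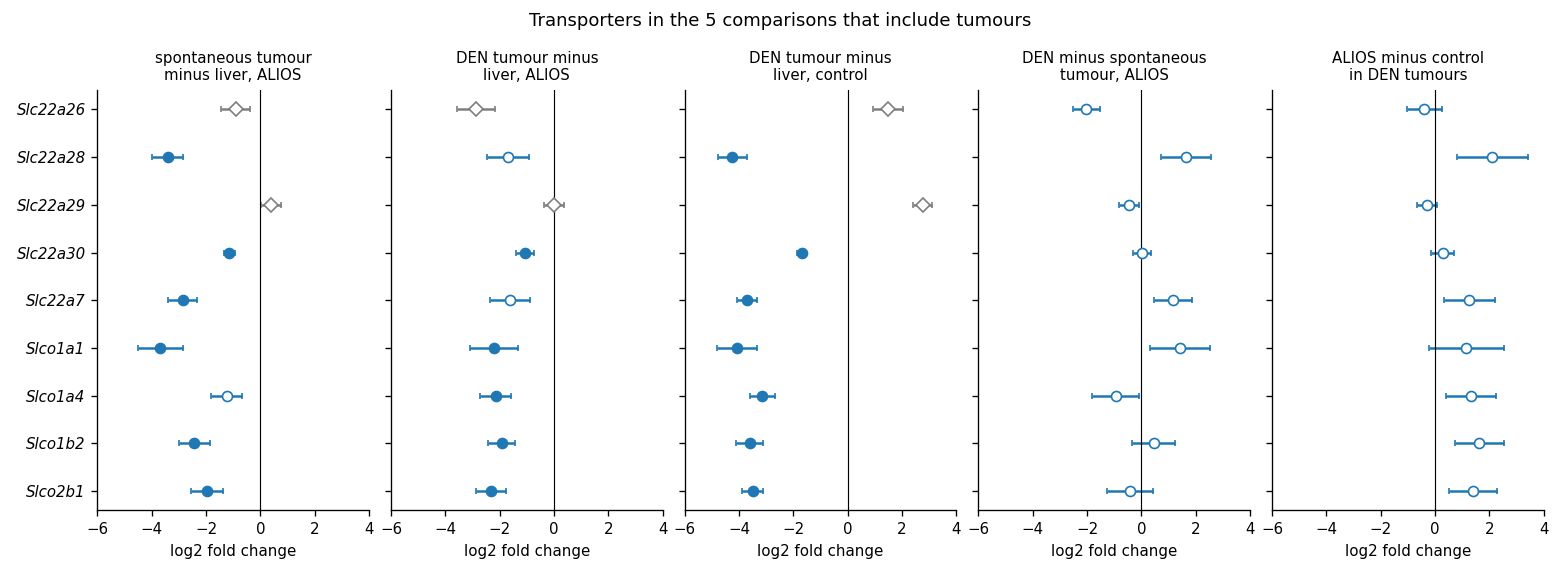
Log2 fold change with its SE of the 9 transporters in 5 comparisons, each panel naming the groups. Filled circles passed an adjusted p of 0.05 in edgeR, open circles did not, and grey diamonds mark Slc22a26 and Slc22a29 where they carry no test. The 7 other members lie below 0 in all 3 comparisons with liver.

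Slc22a29 stood apart from the 7 tested members in tumours, as values without a test. For Slc22a26 this held only in control fed DEN tumours, set against control livers that had entered the choice of both genes. Slc22a29 had 7.47 ± 4.66 CPM in 12 spontaneous ALIOS tumours, 5.45 ± 1.97 in 8 DEN ALIOS tumours and 5.56 ± 3.71 in 11 ALIOS livers. On the control diet the DEN tumours T17 to T21 held 4.12, 5.31, 3.49, 6.73 and 14.1 CPM of Slc22a29, all above the 1.87 of the highest control liver. T7, the control fed spontaneous tumour, held 4.44 CPM. The means of these 4 groups lay closer together than the SD of any neighbour in their order, from 2.20 to 2.64 on the log2 CPM scale, against -0.07 in control liver. Slc22a26 had 11.2 ± 11.2 CPM in spontaneous ALIOS tumours, 20.3 ± 31.8 in ALIOS liver and 2.74 ± 2.03 in DEN ALIOS tumours. The mean of ALIOS liver was 10.9 CPM without N23, and the medians of spontaneous tumours and ALIOS liver were 8.29 and 9.78 CPM. The log2 fold change between these groups was -0.91 with edgeR and 0.03 with DESeq2, so that no direction is given. Against ALIOS liver, ALIOS fed DEN tumours had a log2 fold change of Slc22a26 of -2.87 with edgeR and -1.96 with DESeq2. The 7 tested members ran from -2.31 to -1.07 there with edgeR. In 3 of these 8 tumours Slc22a26 lay below every ALIOS liver. In the 5 control fed DEN tumours it stood at 6.73, 3.44, 4.55, 3.02 and 0.250 CPM, of which 2 lay above every control liver, and T7 held 1.64.

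**Figure D5:**
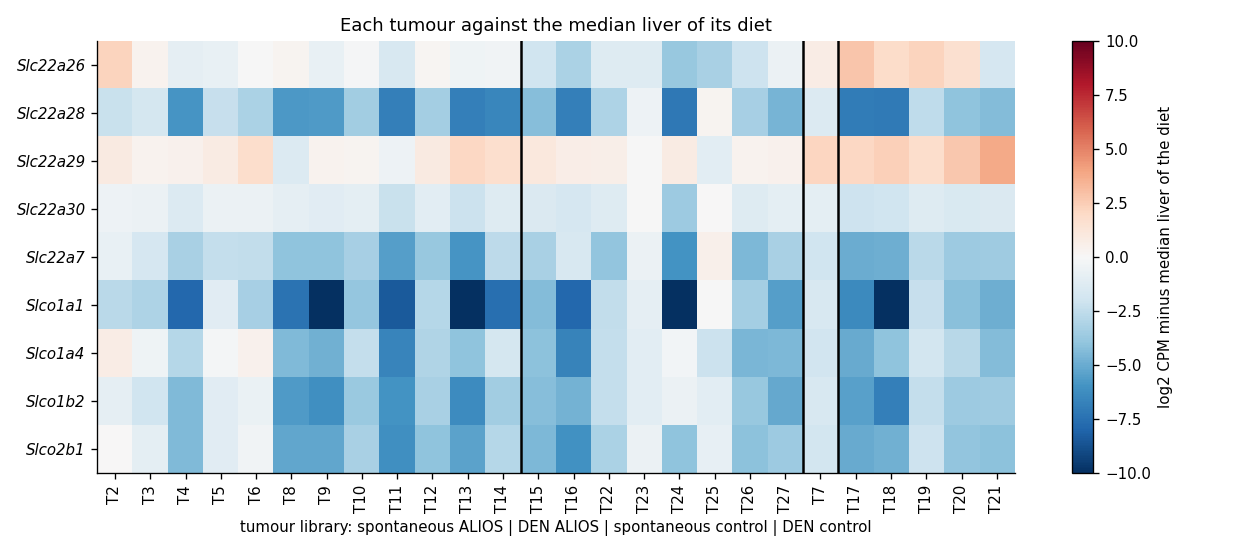
Log2 CPM of the 9 transporters (rows) in each of 26 tumours (columns) minus the median of the non-tumour livers of the same diet, with blue below and red above it, and lines between spontaneous ALIOS, DEN ALIOS, spontaneous control (T7) and DEN control tumours. Slco1a1 falls furthest in T9, T13, T18 and T24, while Slc22a29 is above the liver median in all 5 control fed DEN tumours.

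Between DEN and spontaneous tumours of the ALIOS diet 0 of the 9 members and 0% of 14845 genes passed in edgeR. At an unadjusted p under 0.05 there were 1079 genes, 1 of them a member. That member was Slc22a26, with a log2 fold change of -2.02 (SE 0.50, adjusted p = 0.228, edgeR), from 0.653 to 6.68 CPM in DEN tumours and from 3.27 to 45.6 in spontaneous tumours. DESeq2 called 67 genes, with Slc22a26 at an adjusted p of 0.0114. The other 8 members had log2 fold changes from -0.95 to 1.66 with SE from 0.33 to 1.10.

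Between ALIOS and control fed DEN tumours 0 of the 9 members passed in edgeR, beside 0.0134% of 14944 genes. No member had an unadjusted p under 0.05, as 1273 genes did, and DESeq2, which called 155 genes, called none of the 9. The 7 members that fell in tumours had higher mean CPM on ALIOS, with log2 fold changes from 0.27 for Slc22a30 (SE 0.43) to 2.11 for Slc22a28 (SE 1.32), and the values of Slc22a26 and Slc22a29 were -0.40 (SE 0.63) and -0.31 (SE 0.37). The medians did not all go the same way. For Slc22a7 and Slc22a30 they were lower on ALIOS, at 5.93 and 59.9 CPM against 8.48 and 67.1, and for the others of the 7 they were higher. With an SE as large as that of Slc22a28 a change by several fold could not be told from none in this comparison. For members with a smaller SE, such as Slc22a29 and Slc22a30, the change that could be missed was smaller.

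For the 7 members other than Slc22a26 and Slc22a29 both livers had higher mean log2 CPM than all 3 tumour groups of more than 1 library, while the order within livers and within tumours differed between members. Neighbouring groups in the order of mean log2 CPM were taken to differ where their means were further apart than the larger of their SDs, which held for 8 of 36 pairs. For Slc22a7, Slc22a28, Slc22a30, Slco1a1, Slco1b2 and Slco2b1 the one step that passed lay between the lower of the 2 livers and the highest of the tumour groups. For Slco1a4 no step passed. For Slc22a29 the step lay between control liver and the other 4 groups, which is in part the difference it was chosen on and is a description only, and for Slc22a26 between spontaneous ALIOS tumours and control fed DEN tumours.

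Genes with the most similar levels over the 49 libraries were sought by Pearson's r of log2 CPM, as a description, since the points share groups and sequencing runs are not given. Slco1a1 and Slc22a28, from different families and chromosomes, had an r of 0.966 with each other, and both were most like major urinary protein genes, with 0.968 and 0.971 for Mup2, whose product carries pheromones in male urine. The r of that pair was 0.925 after subtraction of the group means. Slc22a28 was also most like Sult2a8 (0.970) and Mup1 (0.967), and Slco1a1 like Mup13 (0.970). Slc22a29 was most like its neighbour Slc22a27 (0.916, and 0.763 within groups), then Nbdy (0.861) and Cyp2b13 (0.844). Slc22a26 had no close match, the highest being Cyp2c40 at 0.712, Gas6 at 0.710 and Cyp3a44 at 0.708. Its r with Slc22a29 was 0.492, and 0.112 within groups. For Slc22a29 against Slc22a28 and Slc22a30, genes at least 92.1% identical to it in coding sequence, r was -0.58 and -0.63, and -0.25 and -0.34 within groups.

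The remaining members divided by their leading genes. Slco1b2 was most like the metabolic enzymes Rgn (0.986), Pon1 (0.985) and Cyp2e1 (0.973). Slco1a4 was most like Prodh (0.954), Cyp4f15 (0.949) and the carnitine and cation transporter Slc22a4 (0.931), and Slco2b1 was most like Mup-ps13 (0.977), Car1 (0.973) and Igfals (0.971), the last being the acid labile subunit that carries insulin-like growth factors in blood. Slc22a30 was most like Asic5 (0.954), Ces3b (0.954) and Srd5a1 (0.943), and Slc22a7 like D630033O11Rik (0.933), Agxt (0.929) and C8b (0.926). Slco1b2, Slco1a4 and Slco2b1 had r of 0.906 to 0.940 with each other (0.854 to 0.876 within groups). Slc22a7, Slc22a28 and Slc22a30 had r of 0.891 to 0.918 (0.72 to 0.828 within groups), where Slc22a28 and Slc22a30 may share reads. Across these sets r ran from 0.64 to 0.91 (0.266 to 0.796 within groups), so the sets were not fully apart. Slco1a1 had r of 0.865 to 0.966 with the Slc22 set and 0.708 to 0.879 with the Slco set.

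Other transporters and regulators in the tumours are given by counts. Of all genes tested, 25.9%, 19.8% and 24.4% were called lower in spontaneous, ALIOS DEN and control DEN tumours against liver. Called higher were 26.9%, 27.7% and 27.3%. Slc10a1, the sodium-dependent bile acid uptake carrier of hepatocytes, fell in all 3 comparisons with liver, with log2 fold changes of -2.03 (SE 0.32), -2.05 (SE 0.42) and -2.39 (SE 0.25) in spontaneous, ALIOS DEN and control DEN tumours, with adjusted p in edgeR of 5.75e-04 or less. Abcb11, the bile salt export pump, fell in the same 3, with -1.10 (SE 0.18), -0.67 (SE 0.19) and -1.70 (SE 0.21). Of the 16 bile acid and drug transporters tested, 6, 5 and 6 fell and 2, 1 and 6 rose, the efflux pump Abcc4 by 2.18 (SE 0.55) and 2.18 (SE 0.27) in the 2 kinds of DEN tumour. Among the 12 other Slc22 and Slco genes tested, 4, 3 and 4 fell and 3, 2 and 3 rose. These counts lay near the shares over all genes, and nothing is read from them. Slc22a4 fell in all 3, and Slc22a27 rose by 2.99 (SE 0.55, adjusted p = 1.5e-04, edgeR) in control fed DEN tumours.

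Of the 28 regulators, 15, 12 and 10 fell and 2 rose in each of the 3 comparisons. Beside these and the following counts, 25.9%, 19.8% and 24.4% of all genes were called lower and 26.9%, 27.7% and 27.3% higher. Ghr, the growth hormone receptor, fell with log2 fold changes of -1.39 (SE 0.19), -1.36 (SE 0.22) and -1.56 (SE 0.17), and Nfe2l2, a factor of the oxidative stress response, rose by 0.74 (SE 0.16), 0.91 (SE 0.14) and 1.11 (SE 0.14). Of the 14 male-biased genes tested, 13, 3 and 12 fell and none rose. Of the female-biased genes, 5 of 14, 2 of 13 and 4 of 10 rose and 2, 4 and 1 fell. Hepatocyte markers moved both ways, with 10, 7 and 6 of 20 lower and 5 higher in each, and their summed level had medians of 240719, 233204 and 252712 CPM in spontaneous, ALIOS DEN and control DEN tumours against 159010 and 171286 in ALIOS and control liver. Macrophage markers fell in 11, 2 and 5 of 14 and rose in 2 each. Their summed level had medians of 781 and 966 CPM in spontaneous and ALIOS DEN tumours against 948 in ALIOS liver, and of 852 in control DEN tumours against 541 in control liver, where more markers fell than rose. Lymphocyte markers, 10 genes, summed to medians of 24.3 and 9.55 CPM in control DEN tumours and control liver. The part of these cells in the transporters' values was not tested.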

How the data were processed

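Messenger RNA of 50 mouse liver and tumour samples had been sequenced on Illumina instruments. The authors aligned reads with STAR to mm10 and counted them per gene with HTSeq, and deposited raw counts. Libraries came from a stranded kit, and the counts were of Gencode M6 exons with the intersection-nonempty mode. Software versions and HTSeq's strand option are not given in the sources used here. Of 45792 genes, 23214 carried a symbol in the table and 22132 were given one from Gencode M21. T1 was left out of all comparisons. Groups came from the labels. Comparisons used edgeR 4.0.16 (R 4.3.3) on the libraries of both groups, with its filter on low counts, TMM factors and the quasi-likelihood test, Benjamini-Hochberg adjustment over all genes and a threshold of 0.05. Log2 CPM used a prior count of 2, and log2 fold changes of the fit are moderated. The SE was the absolute log2 fold change divided by the square root of the quasi-likelihood F, also where no p is given. The procedure was tested on simulated data. DESeq2 1.42.0, other size factors, no filter, 1 fit of all groups and libraries left out were alternatives. Named were all 9 members, the 3 genes most like each, and from each other list up to 4 genes with the smallest p per comparison. Genes named beyond that rule were chosen after their values were seen. Members and lists were chosen with earlier results of these data known. Sequences came from the mm10 genome, Gencode M21 and RefSeq promoter starts, and identities were computed with Biopython 1.88. RefSeq promoters matched 8 members, and Slc22a7 was not shown.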

Additional observations from a re-analysis of the deposited data

Results flagged for a closer look

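Among 18 sets of 5 or 8 tumours searched, 2 held a library far from the rest, where chance gives about 1 in 20. Slc22a26 in the control fed DEN tumour T21 stood at -1.68 on the log2 CPM scale, and the other 4 lay between 1.63 and 2.76. Slc22a30 in the ALIOS fed DEN tumour T24 stood at 3.55, and the other 7 lay between 5.52 and 7.23.

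Libraries outside the comparisons also held members above every control liver. T1, labelled as a tumour but holding kidney transcripts, had 18.8 CPM of Slc22a26 (highest control liver 3.75), 259 CPM of Slc22a28 (28.5), 5.61 CPM of Slc22a29 (1.87), 319.9 CPM of Slc22a30 (310.5) and 881 CPM of Slco1a1 (847). It had 0.534 CPM of Slco1b2. The values of T1 are CPM of its library total, without further scaling, and those of the livers are scaled. T7, the 1 control fed spontaneous tumour, had 4.44 CPM of Slc22a29.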

How the results depend on the processing

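Of 420 alternative values of single members, 408 kept their direction and their side of the threshold or, without a test, moved by less than the spread between libraries, of which 3 values without a test crossed 0. Of 42 counts of members called, 36 were equal to those reported. The count rose from 0 to 1 of 9 between DEN and spontaneous ALIOS tumours with DESeq2, where Slc22a26 passed, and fell from 6 to 5 of 7 in spontaneous tumours with T1 included, and the cause was not tested. With T1 included, the log2 fold change of Slc22a28 in spontaneous tumours was 0.197 in place of -3.42; T1 held 259 CPM of Slc22a28. Between DEN and spontaneous tumours, where neither gene passed, Slc22a28 was -1.93 and Slc22a30 -0.19 with T1 included, in place of 1.66 and 0.01, and Slc22a30 was -0.18 without T23. By diet in DEN tumours Slc22a29, which did not pass, was 0.16 without T21 and ran from -0.475 to 0.16 as each control fed DEN tumour was left out. Leaving out each control fed DEN tumour in turn gave 7 of 7 members lower than liver each time and 0 of 9 changed by diet. The number of members lower than liver in ALIOS fed DEN tumours, 5, was 6 without T23 or without N17 and N19, 7 with DESeq2 or 1 fit of all groups, and 5 otherwise. By diet in liver the genes called numbered 1325 without N23 and 413 without N17 and N19. The number of neighbouring group pairs further apart than their SD was the same, 8 of 36, with DESeq2 size factors. DESeq2 called 67 genes and 1 fit of all groups 403 between DEN and spontaneous tumours, where edgeR called 0, and 155 and 296 by diet in DEN tumours, where edgeR called 2. No paired analysis was possible because the labels give no numbers that link livers and tumours of 1 mouse. The lowest value of Slc22a28, 0.0353 CPM in T24, rests on 2 reads, so ratios of the lowest tumours are imprecise, and the control fed DEN tumours number 5.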
